A study of Rattus norvegicus with 10 samples.

Results

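Steroid receptors and glucocorticoid response genes were followed in RNA-seq libraries of the rat supraoptic nucleus (male Sprague-Dawley) after knock-down of Opn3, the gene of the light-sensitive receptor opsin 3. The set was fixed by name and held 9 of the 32623 genes in the deposited table: the glucocorticoid receptor Nr3c1, the mineralocorticoid receptor Nr3c2, the estrogen receptors Esr1 and Esr2, the progesterone receptor Pgr, the glucocorticoid-induced genes Fkbp5, Sgk1 and Tsc22d3, and the enzyme gene Hsd11b1. Each symbol stood beside a single Ensembl identifier, and all 9 passed the filter for testing, a mean of at least 10 normalized counts over the 10 samples.

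The supraoptic nucleus holds the magnocellular neurons that make vasopressin (Avp) and oxytocin (Oxt). Every rat, weighing 250 to 300 g, had adeno-associated virus in both nuclei, with an Opn3-targeting short hairpin RNA on one side (shOpn3, n = 5) and a non-targeting hairpin on the other (shControl, n = 5). The nuclei were taken 2 weeks later, each extracted alone from 1 mm punches of 100 µm sections. The controls therefore carried virus and hairpin too, and no group without virus was analysed here. The rats' age, the side given each virus, its serotype and the promoter and cell type that drove the hairpin are not given in the sources used here. A punch holds every cell type of the tissue, and in such bulk samples fewer cells of a type cannot be told apart from less RNA per cell.

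Steroid receptors are transcription factors switched on by a hormone that enters the cell. Unbound receptor is held by chaperones of the Hsp90 family, with immunophilins such as Fkbp5 attached. After binding hormone the receptor acts in the nucleus on genes that carry a response element. Glucocorticoid, mineralocorticoid and progesterone receptors share a response element built from the half-site AGAACA, read on the other strand as TGTTCT, whereas estrogen receptors use GGTCA, read on the other strand as TGACC. In the rat, magnocellular neurons are known for Esr2 rather than Esr1, and brain glucocorticoid signalling is shaped locally by Hsd11b1, which regenerates active corticosterone from its inert 11-keto form.

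The sequences upstream of the 3 members that changed are shown for these half-sites. They are the 250 bases before an annotated transcript start, 5′ to 3′ on the gene's strand, from RefSeq (assembly GRCr8), with any match to a half-site of either kind in capitals. Esr2 lies at chr6:100644710-100644959 on the minus strand, Pgr at chr8:14354148-14354397 on the plus strand, and the most upstream of 3 Tsc22d3 starts at chrX:109066390-109066639 on the minus strand.
Esr2: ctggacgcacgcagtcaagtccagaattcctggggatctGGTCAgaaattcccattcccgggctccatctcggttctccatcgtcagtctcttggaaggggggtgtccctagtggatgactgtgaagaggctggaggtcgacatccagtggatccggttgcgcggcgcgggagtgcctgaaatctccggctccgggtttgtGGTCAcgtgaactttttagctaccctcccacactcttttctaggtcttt
Pgr: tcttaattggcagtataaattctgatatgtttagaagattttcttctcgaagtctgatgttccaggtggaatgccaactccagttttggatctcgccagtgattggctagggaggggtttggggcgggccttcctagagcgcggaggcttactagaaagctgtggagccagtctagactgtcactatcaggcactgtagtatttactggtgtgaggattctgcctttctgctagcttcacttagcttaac
Tsc22d3: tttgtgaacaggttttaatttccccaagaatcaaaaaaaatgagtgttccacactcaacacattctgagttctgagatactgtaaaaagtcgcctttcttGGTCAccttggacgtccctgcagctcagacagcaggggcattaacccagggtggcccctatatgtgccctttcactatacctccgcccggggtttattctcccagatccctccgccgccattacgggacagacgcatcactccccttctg

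The Esr2 window held GGTCA at positions -211 and -49 from the start, and the Pgr window held neither kind of half-site. The window shown for Tsc22d3, that of its most upstream start, held GGTCA at -150. The windows of the other Tsc22d3 starts, not shown, held neither kind. Windows were found for 7 of the 9 members, 12 windows in all because Sgk1, Tsc22d3 and Nr3c1 had several starts. On either strand, AGAACA was in 0 of these 12 and in 17.5% of all 33469 windows of this length, and GGTCA was in 3 of 12 (Esr2, Tsc22d3 and Sgk1, 1 window each) and in 35.4%. The full palindromic elements, each half-site followed after any 3 bases by its reverse complement, were in 0 of the 12 windows and in 0.0120% and 0.0239% of all windows. The best known response elements of Fkbp5 lie in introns, outside such a window. Read counts per gene do not show which start was used.

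All 10 libraries were of similar depth, with 33158341 to 39958578 reads each. Opn3, the targeted gene, had 719, 694, 841, 1007 and 261 normalized counts in shControl replicates 1 to 5 and 290, 193, 159, 154 and 145 in shOpn3. It was lower in 5 of 5 same-numbered pairs, at 26.7% of the control mean, but shControl replicate 5 lay below shOpn3 replicate 1, so the groups overlapped. The marker genes of magnocellular and hypothalamic neurons were detected in every sample, but 9 of 11 fell, Avp to 21.4% and Oxt to 20.6% of the control mean. Summed over the marker list, these transcripts ranged from 85559 to 202422 normalized counts in shControl and from 41030 to 72441 in shOpn3. Oligodendrocyte markers fell (10 of 10; 770445 to 1306850 against 266022 to 497478) and microglial markers rose (9 of 10, and 0 fell; 9690 to 13763 against 18097 to 37226). Of 10 astrocyte markers 3 rose and 1 fell, of 10 pan-neuronal markers 1 rose and 2 fell, and of 8 markers of endothelium and mural cells 0 passed the test (limma adjusted p; 0 with an unadjusted p under 0.05). Of 6 genes listed for oligodendrocyte precursors 3 fell and 0 rose. Those that fell were Olig1, Olig2 and Sox10 (log2 fold changes -0.88, -0.71 and -1.12). Pdgfra, Cspg4 and Gpr17 were not called (-0.02, -0.14 and -0.09), so the list did not fall as a whole. The share called over all genes tested was 18.8%. No defining marker of these lists was listed at 0 in all samples. The part of these shifts in the results below was not tested, beyond the values given beside each gene.

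The first question was which of the 9 genes differed between knock-down and control nuclei. Esr2 and Tsc22d3 fell and Pgr rose, and the other 6 did not pass the test. The 3 calls (33.3% of the members) stand against 18.8% of all 15597 genes tested, 10.4% called higher and 8.48% called lower. Groups did not overlap for 1 member, Pgr, against 15.3% of all genes, and all 5 pairs moved in one direction for 5 members, against 39.4%. The median log2 fold change of the 9 members was 0.14, and that of all genes tested was -0.02. Fold changes are differences of log2(normalized count + 1) between group means with their standard error (SE), and calls rest on limma with Benjamini-Hochberg adjustment over all genes tested at a threshold of 0.05. Exact two-sided permutation tests of single genes allow no p below 0.00794 for 5 against 5 samples or below 0.0625 for 5 pairs. They are not adjusted for the 9 genes. The exact permutation p given beside single genes below is that of the splits of 5 against 5, which ignore the pairs. The exact sign-flip test over pairs gave p = 0.0625 for each of Esr2, Pgr, Tsc22d3, Fkbp5 and Nr3c2.

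**Figure D1:**
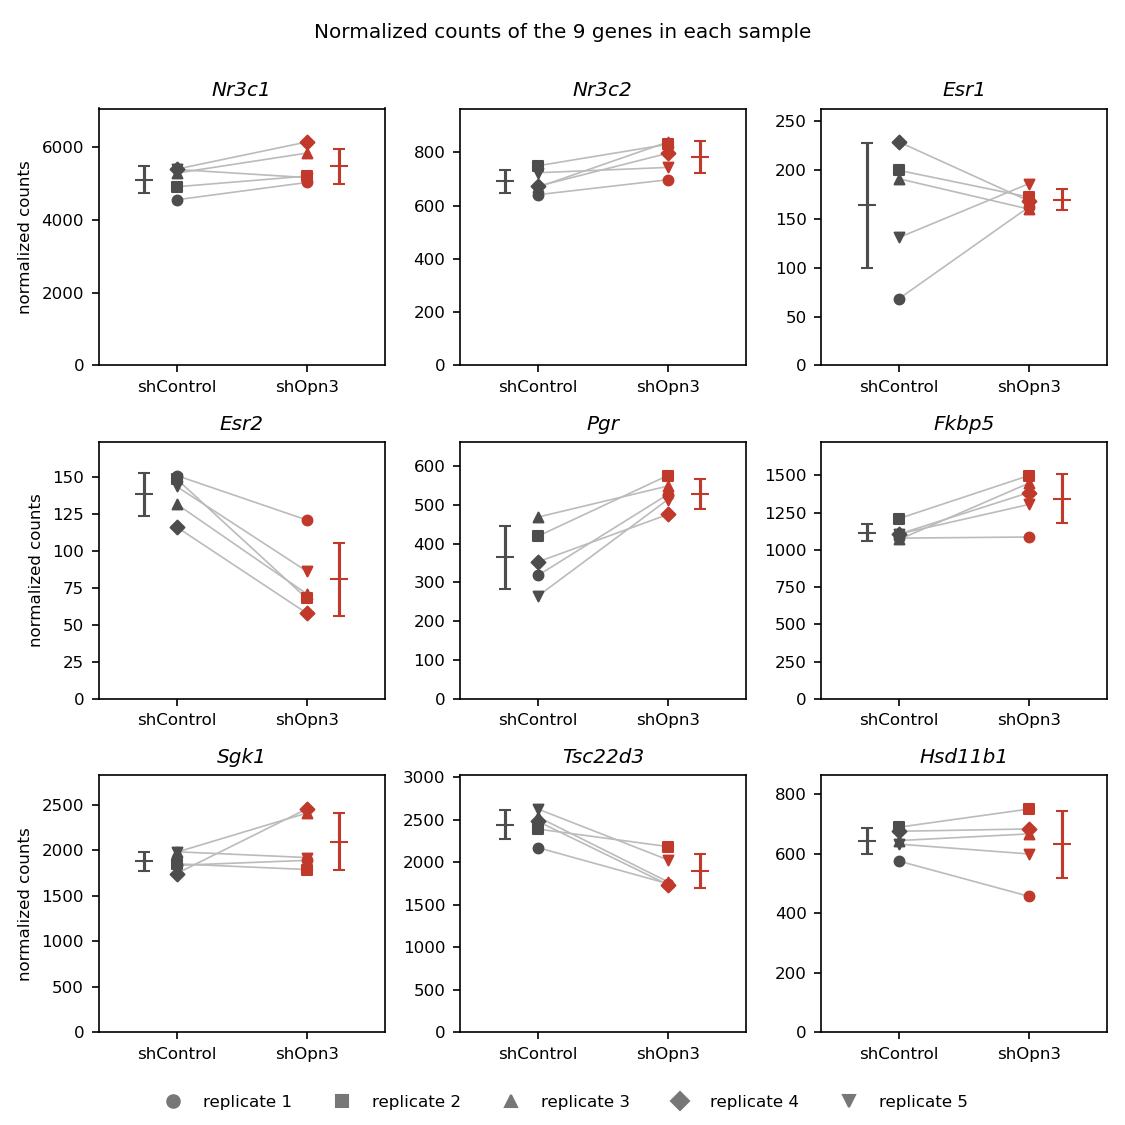
Normalized counts (y axis, from 0) of the 9 genes in each shControl (grey) and shOpn3 (red) sample, with lines between samples of the same replicate number and bars for the mean ± SD of 5 samples. Esr2 and Tsc22d3 go down and Pgr and Fkbp5 go up in every pair, while Esr1 is scattered in shControl (68.3 to 228) and narrow in shOpn3 (160 to 186).

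Of the receptors for estrogen and progesterone, Esr2 (ENSRNOG00000005343) was lower after knock-down. It encodes estrogen receptor beta, the estrogen receptor for which rat magnocellular neurons are known. Its normalized counts were 151, 149, 132, 116 and 143 in shControl replicates 1 to 5 and 121, 68.0, 71.0, 58.0 and 86.3 in shOpn3 replicates 1 to 5. All shOpn3 samples but replicate 1 lay below every control, so the groups overlapped by that sample alone. The means were 138 ± 14.4 and 80.8 ± 24.6 (both SD, n = 5), and Esr2 fell by 0.81 on the log2 scale (SE 0.188; adjusted p = 0.0106 by limma; exact permutation p = 0.0159). In same-numbered pairs it stood at 80.1%, 45.8%, 54.0%, 49.9% and 60.1% of the control. Pair 1 thus showed the smallest difference. The fall of Esr2 was smaller than those of Avp (log2 fold change -2.35) and Oxt (-2.21) in the same libraries; this difference was not tested.

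Esr1 (ENSRNOG00000019358), the gene of estrogen receptor alpha, showed no difference that could be told from its spread. Its normalized counts were 68.3, 199, 191, 228 and 131 in shControl and 162, 172, 160, 168 and 186 in shOpn3, in replicate order. The control samples varied far more than the knock-down samples, with a coefficient of variation of 39.1% against 6.09%, and replicate 1 was the lowest control. The log2 fold change was 0.17 (SE 0.271; 95% confidence interval -0.42 to 0.76; adjusted p = 0.718 by limma), and it was -0.12 without shControl replicate 1. Esr1 was higher in 2 pairs and lower in 3. As a description chosen after the values were seen, Esr2 amounted to 50.8% to 221% of the Esr1 count in shControl and 34.5% to 74.6% in shOpn3, lower in 5 of 5 pairs with overlapping groups.

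Pgr (ENSRNOG00000006831), the progesterone receptor gene, rose. Pgr is a classic estrogen-induced gene in other brain regions and in the reproductive tract. Normalized counts were 318, 419, 468, 353 and 265 in shControl and 527, 576, 549, 475 and 514 in shOpn3. Every knock-down sample lay above every control, the nearest being shControl replicate 3 and shOpn3 replicate 4. The means were 365 ± 80.7 and 528 ± 37.7 (both SD, n = 5), a log2 fold change of 0.56 (SE 0.143; adjusted p = 0.0167 by limma; exact permutation p = 0.00794). It stood at 117% of the same-numbered control in pair 3, the smallest difference, and at 194% in pair 5, the largest. Pgr and Esr2 therefore changed in opposite directions in 5 of 5 pairs.

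The receptors for adrenal steroids did not pass the test. Nr3c1 (ENSRNOG00000014096), the glucocorticoid receptor, had 4548, 4905, 5280, 5389 and 5379 normalized counts in shControl and 5022, 5198, 5829, 6134 and 5157 in shOpn3. The groups overlapped broadly, and the log2 fold change was 0.10 (SE 0.0794; 95% confidence interval -0.07 to 0.27; adjusted p = 0.429 by limma). Nr3c2 (ENSRNOG00000034007), the mineralocorticoid receptor that binds both aldosterone and corticosterone, had 641, 750, 669, 673 and 724 in shControl and 697, 831, 839, 797 and 744 in shOpn3. It was higher in 5 of 5 pairs, at 103% to 125% of the control, but did not pass the test over all genes (log2 fold change 0.18, SE 0.0827; adjusted p = 0.166 by limma; exact permutation p = 0.0397).

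The balance of these receptors was compared within samples, because corticosterone binds both and a ratio of the same genes across samples does not depend on gene length. Nr3c2 amounted to 13.6% ± 1.14 of the Nr3c1 count in shControl and to 14.3% ± 1.09 in shOpn3 (both SD, n = 5). The ranges, 12.5% to 15.3% and 13.0% to 16.0%, lay almost on top of each other. The ratio differed by 0.08 on the log2 scale, higher in 4 of 5 pairs, which is smaller than the spread between samples (exact permutation p = 0.325; exact sign-flip test over pairs, p = 0.125). The percentage is a ratio of read counts, not of molecules.

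**Figure D2:**
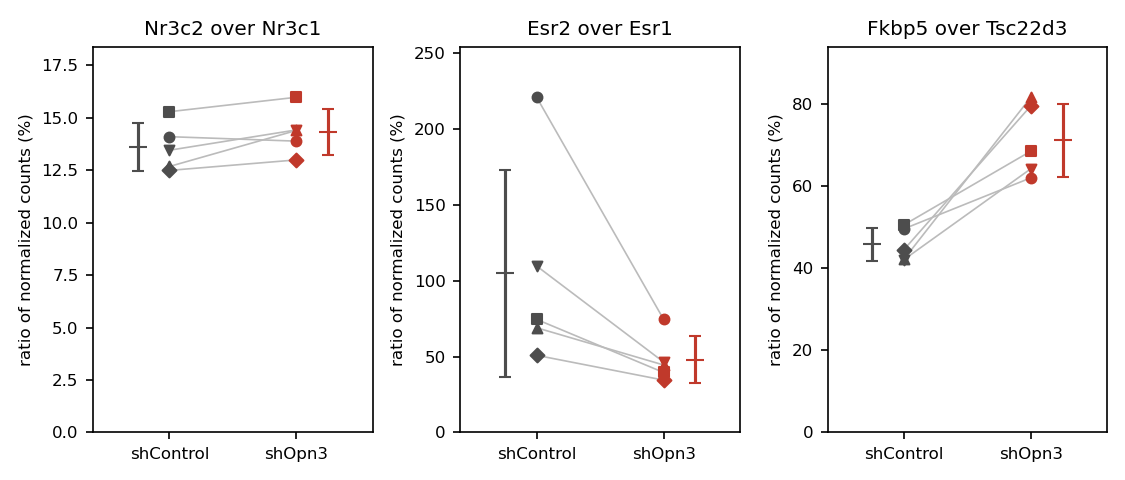
Ratios of normalized counts within each sample (y axis, percent, from 0) for Nr3c2 over Nr3c1, Esr2 over Esr1 and Fkbp5 over Tsc22d3, in shControl (grey) and shOpn3 (red); lines join samples of the same number, symbols mark the numbers as in the plot of counts by sample, and bars give mean ± SD of 5 samples. Nr3c2 over Nr3c1 overlaps between groups. Esr2 over Esr1 and Fkbp5 over Tsc22d3 were chosen after the values were seen and were not tested. Fkbp5 over Tsc22d3 sets a gene higher in every pair over one lower in every pair. It is 42.1% to 50.6% in shControl and 62.0% to 81.7% in shOpn3.

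Among the genes that glucocorticoids induce, 1 fell and 2 did not pass the test. Tsc22d3 (ENSRNOG00000056135) encodes GILZ, a leucine zipper protein that mediates anti-inflammatory effects of glucocorticoids. Its normalized counts were 2174, 2393, 2536, 2484 and 2629 in shControl and 1751, 2187, 1773, 1740 and 2031 in shOpn3. The highest knock-down sample, replicate 2, lay just above the lowest control, replicate 1, and there was no other overlap. The means were 2443 ± 173 and 1896 ± 202 (both SD, n = 5), so that Tsc22d3 fell by 0.37 in log2 units (SE 0.0855; adjusted p = 0.0101 by limma; exact permutation p = 0.0159). It was lower in 5 of 5 pairs, at 69.9% to 91.4% of the control. Oligodendrocyte markers fell in the same libraries by a median of 1.24 on the log2 scale, a larger change than that of Tsc22d3, and the part of those cells in its fall was not tested.

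Fkbp5 (ENSRNOG00000022523), the immunophilin that lowers the affinity of the glucocorticoid receptor for its hormone and is itself induced by that receptor, was higher in 5 of 5 pairs but missed the threshold. Its normalized counts were 1079, 1210, 1069, 1106 and 1107 in shControl and 1086, 1499, 1448, 1384 and 1305 in shOpn3. Replicates 2 to 5 of shOpn3 lay above every control, while replicate 1 lay among the controls. The log2 fold change was 0.26 (SE 0.0916; 95% confidence interval 0.06 to 0.46), with a limma adjusted p of 0.0657 that missed the threshold and an exact permutation p of 0.0317. With the replicate number as a block, which pairs the samples, the call was made (limma adjusted p = 0.0246), and Fkbp5 was then 1 of 4 members called, against 30.3% of all genes called in that fit. It was also called without shOpn3 replicate 1 (limma adjusted p = 0.00963), and the authors' deposited table lists it with an adjusted p of 0.0336. As a description chosen after the values were seen, Fkbp5 amounted to 45.8% ± 4.05 of the Tsc22d3 count in shControl and 71.2% ± 8.93 in shOpn3 (both SD, n = 5), without overlap.

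Sgk1 (ENSRNOG00000011815), a kinase gene induced by glucocorticoids and mineralocorticoids that regulates sodium channels and transporters, split by sample. Its normalized counts were 1833, 1850, 1978, 1743 and 1982 in shControl and 1888, 1787, 2406, 2452 and 1919 in shOpn3. Replicates 3 and 4 of shOpn3 stood above all other samples, and the other 3 lay in the control range. The log2 fold change was 0.14 (SE 0.0985; 95% confidence interval -0.07 to 0.36; adjusted p = 0.347 by limma).

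Hsd11b1 (ENSRNOG00000005861), the enzyme that regenerates corticosterone, was at 575, 689, 644, 675 and 632 normalized counts in shControl and 457, 750, 666, 683 and 599 in shOpn3. The groups overlapped, with shOpn3 replicate 1 lowest and replicate 2 highest of all samples. Its log2 fold change was -0.04 (SE 0.125; 95% confidence interval -0.32 to 0.23; adjusted p = 0.845 by limma), and it was 0.07 without shOpn3 replicate 1.

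**Figure D3:**
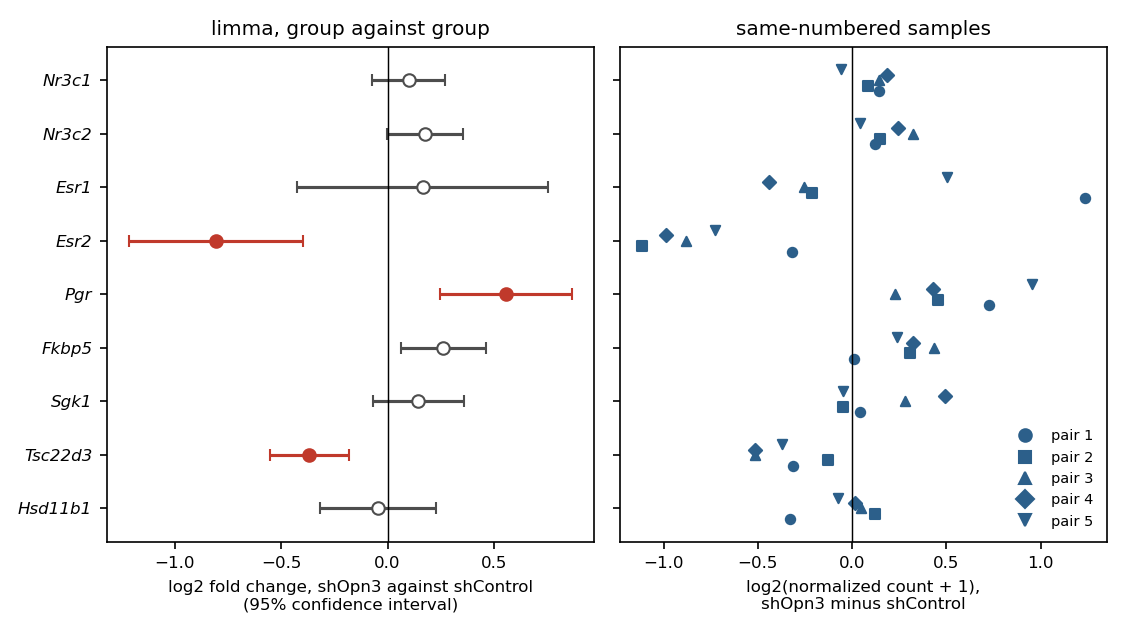
Left, limma log2 fold change of each gene (x axis) with its 95% confidence interval, filled red where the adjusted p was under 0.05. Right, the difference of log2(normalized count + 1) in each same-numbered pair. Esr2 (-0.81), Tsc22d3 (-0.37) and Pgr (0.56) are filled, and only Esr1, Sgk1, Hsd11b1 and Nr3c1 have pairs on both sides of 0.

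The 3 calls survived the loss of any single sample, with limma adjusted p up to 0.0319 for Esr2, 0.0454 for Pgr and 0.0331 for Tsc22d3. They did not all survive the loss of a pair: Esr2 missed the threshold without replicate 2 or 3 (adjusted p 0.0624 and 0.0544), Pgr without 1 or 5 (0.0568 and 0.0505) and Tsc22d3 without 3 or 4 (0.0683 and 0.0577), so that 1 member was called without replicate 3.

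The genes whose profile over the 10 samples was closest to each called member were sought among 13913 other tested genes with a symbol (provisional locus names left out). The measure was the root mean square difference of log2(normalized count + 1), each gene centred on its own mean, in log2 units. Nearest to Esr2 were Rasd1 (0.13), which encodes a small GTPase first described as induced by dexamethasone, and Rgmb (0.13), a co-receptor for bone morphogenetic proteins. Rasd1 fell from 708 ± 77.9 to 407 ± 105 normalized counts (both SD, n = 5; log2 fold change -0.82, SE 0.153; adjusted p = 0.00303 by limma), lower in 5 of 5 pairs. Nearest to Pgr were Grin3a (0.09), a subunit of NMDA glutamate receptors, and Slc16a7 (0.10), a monocarboxylate transporter. Nearest to Tsc22d3 were Septin7 (0.08), a cytoskeletal GTP-binding protein, and Zfp91 (0.07), a zinc finger protein. Since each of these members differed between groups, nearness includes the group difference.

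Lists of related genes, 5 in all, were then read from the same fit; they were written with earlier results of these data known. Of 22 other glucocorticoid response genes tested, 8 rose, 1 fell and 13 were not called, 40.9% called against 18.8% of all genes. The median log2 fold change of the list was 0.21, against -0.02 over all genes tested. The 4 with the smallest p were Lcn2, Mt2A, Bcl6 and Mertk. Lcn2, an iron-carrying lipocalin made in inflammation, had 30.5 to 42.8 normalized counts in shControl and 97.7 to 221 in shOpn3 (log2 fold change 2.05, SE 0.206; adjusted p = 0.000168 by limma). Mt2A, a metal-binding metallothionein, had 81.6 to 247 and 335 to 953 (log2 fold change 2.07, SE 0.323; adjusted p = 0.00114 by limma); it belongs to a family of near copies among which reads may be split. Both had groups that did not overlap.

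Bcl6, a transcriptional repressor, rose by 0.65 (SE 0.105), and Mertk, a receptor for the uptake of dying cells that is present on microglia and astrocytes, by 0.59 (SE 0.108) in log2 units, with limma adjusted p of 0.00141 and 0.00285. The gene that fell was Arrdc2, an arrestin-domain gene named after its value was seen (log2 fold change -0.88, SE 0.254; adjusted p = 0.0295 by limma). Its call was lost without any 1 of replicate pairs 1 to 4 and without shControl replicate 1 (adjusted p 0.0669), shControl replicate 5 (0.0507), shOpn3 replicate 2 (0.0675) or shOpn3 replicate 3 (0.0769). With limma-voom and sample quality weights its log2 fold change was -0.52, and it was not called (adjusted p 0.0602). Microglial markers rose by a median of 1.08 on the log2 scale in the same libraries. Of 10 astrocyte markers 3 rose (Gfap by 1.10, Aqp4 by 0.45 and Gja1 by 0.42), 1 fell and 6 were not called. The part of either cell type in the rises of this list was not tested. The count of called genes in this list was 5 without replicate 2, 3 or 4, when 1895, 1604 and 1982 genes were called in all. With the replicate block it was 11, in a fit that called 30.3% of all genes. The added genes were Klf9 and the cell cycle inhibitor Cdkn1a, the latter named after its value was seen (log2 fold change 0.75, adjusted p by limma 0.0606 without and 0.0489 with the block).

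Per1, Dusp1, Zbtb16 and Klf9, also of that list, are 4 of its 13 genes that were not called. Per1, a clock gene, had 338 to 480 normalized counts in shControl and 391 to 492 in shOpn3 (log2 fold change 0.13, SE 0.114). Dusp1, a phosphatase of MAP kinases, had 461 to 565 and 431 to 527 (-0.11, SE 0.0960), and Zbtb16, a zinc finger transcription factor, had 114 to 161 and 111 to 151 (0.02, SE 0.140). The groups overlapped for all 3, with limma adjusted p from 0.469 to 0.941. Klf9, a Krüppel-like factor, had 1425 to 1622 and 1506 to 1965 and was higher in 5 of 5 pairs (log2 fold change 0.21, SE 0.0812; adjusted p = 0.0994 by limma). Like Fkbp5 it was called with the replicate block (limma adjusted p = 0.0271) and without shOpn3 replicate 1 (0.0366).

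**Figure D4:**
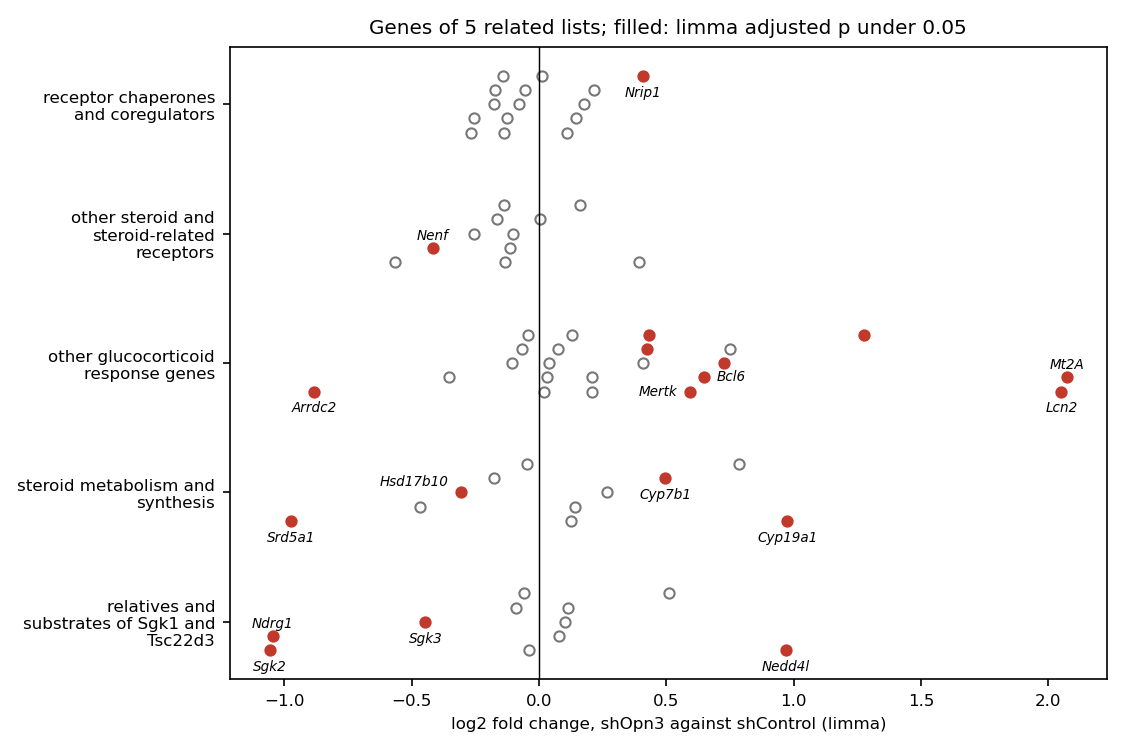
Limma log2 fold change (x axis) of tested genes of the 5 related lists (rows; vertical offsets within a row only separate points), filled red where the adjusted p was under 0.05. Glucocorticoid response genes that were called lie mostly to the right (8 of 9). Chaperones and coregulators lie between Stip1 (-0.27) and Nrip1 (0.41), and of them only Nrip1 is filled.

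Most of the machinery that holds and assists the receptors did not pass the test. Of 15 chaperones and coregulators tested 1 rose and 0 fell, 6.67% called against 18.8% of all genes; 6 had an unadjusted p under 0.05. This count depended on the method: 3 were called with quantile normalization (0 lower), 4 with DESeq2 (2 lower) or with DESeq2 and the replicate block (3 lower), and 7 with limma-voom and sample quality weights (5 lower). In the same order these fits called 2973, 3711, 4555 and 5085 genes in all, against 2940 in the reported fit. The gene that rose was Nrip1, a corepressor of estrogen and other nuclear receptors that is itself induced by estrogen. It had 792 to 1102 normalized counts in shControl and 1110 to 1450 in shOpn3, without overlap (log2 fold change 0.41, SE 0.104; adjusted p = 0.0167 by limma), and its call was lost without replicate 3 (adjusted p 0.0509) or 4 (0.0683). The list held 2 called genes without shControl replicate 1, shControl replicate 5 or shOpn3 replicate 2, when 2643, 2901 and 2618 genes were called in all. With the replicate block 2 were called, the added one being Fkbp4, the immunophilin that competes with Fkbp5 (named after its value was seen; log2 fold change -0.18, adjusted p with the block = 0.0299). Among further receptors of steroids and related ligands, Nenf, a secreted protein of the membrane-associated progesterone receptor family, fell by 0.42 (SE 0.105; adjusted p = 0.0151 by limma), without overlap, and its call was lost without replicate 4 (adjusted p 0.0611).

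Of 11 genes of steroid metabolism and synthesis tested, 2 rose and 2 fell, 36.4% called against 18.8% of all genes. Srd5a1, the 5-alpha-reductase that starts the conversion of progesterone and testosterone to neurosteroids, fell from 1694 ± 390 to 859 ± 167 normalized counts (both SD, n = 5; log2 fold change -0.97, SE 0.164; adjusted p = 0.00175 by limma). Cyp19a1, the aromatase that makes estradiol, had 39.8 to 46.8 in shControl and 65.8 to 121 in shOpn3 (log2 fold change 0.97, SE 0.173; adjusted p = 0.00242 by limma). Neither gene's groups overlapped, and both moved one way in 5 of 5 pairs. Oligodendrocyte markers fell by a median of 1.24 on the log2 scale in the same libraries, and their part in the fall of Srd5a1 was not tested. Cyp7b1, a hydroxylase of oxysterols and neurosteroids, rose by 0.49 (SE 0.110), and Hsd17b10, a mitochondrial hydroxysteroid dehydrogenase, fell by 0.31 (SE 0.0777), with limma adjusted p of 0.00838 and 0.0162. The call for Cyp7b1 was lost without replicate 3 (adjusted p 0.0516), and that for Hsd17b10 without replicate 2 (0.0739) or 5 (0.0594). With the replicate block 7 genes were called, in a fit that called 30.3% of all genes, adding Tspo (higher, adjusted p with the block = 0.0302), Hsd17b12 and Sts (both lower, 0.0489 and 0.0450), which are named after their values were seen. Hsd11b2, Srd5a2, Cyp11a1 and Cyp17a1 did not reach a mean of 10 and were not tested.

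Among relatives and substrates of Sgk1 and Tsc22d3, 1 of 11 tested rose and 3 fell, 36.4% called against 18.8% of all genes. Nedd4l, the ubiquitin ligase of sodium channels that Sgk1 restrains by phosphorylation, had 1199 to 1478 normalized counts in shControl and 2214 to 2888 in shOpn3 (log2 fold change 0.97, SE 0.0919; adjusted p = 0.000149 by limma). Ndrg1, a substrate of Sgk1 that is also abundant in myelinating glia, fell to 48.2% of the control mean (log2 fold change -1.05, SE 0.152; adjusted p = 0.000812 by limma). The sister kinases Sgk3 and Sgk2 fell by 0.45 (SE 0.106) and 1.06 (SE 0.294), with limma adjusted p of 0.0118 and 0.0251, while Sgk1 itself did not pass the test; the difference between the kinases was not tested. The call for Sgk2 was lost without pair 1, 2 or 5 and without shControl replicate 1 (adjusted p 0.0579), shControl replicate 5 (0.0553), shOpn3 replicate 2 (0.0578) or shOpn3 replicate 3 (0.0691). Oligodendrocyte markers were lower in the same libraries, and their part in the falls of Ndrg1 and Sgk2 was not tested. Without replicate 5 the list held 2 called genes, when 2198 genes were called in all, and Sgk3 was not called (limma adjusted p 0.0518).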

How the data were processed

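RNA-seq of 10 supraoptic nuclei was analysed from 1 deposited table. Per the submitters' processing notes, FastQC, STAR, featureCounts and DESeq2 were used; versions, genome build, annotation and strand setting are not given in the sources used here. The values per sample are a signal that the authors deposited, read counts divided by 1 size factor per sample; the authors' mean column has the same unit. Per the file headers the table also holds the authors' log2 fold change with its standard error, a Wald score, and p-value and adjusted p-value; refitting the recovered reads with DESeq2 (1.42.0) gave 0 genes differing by more than 1e-04. Dividing each deposited column by its smallest positive value gave whole reads (within 0.001) for 100% of values.

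Values were tested as log2(normalized count + 1), pseudocount 1, in genes with a mean of at least 10, with limma 3.58.1 (lmFit and eBayes with a trend; R 4.3.3), group as the only term, two-sided. This was the test planned for normalized values; limma-voom, edgeR (4.0.16) and DESeq2 on recovered reads were alternatives, as were other pseudocounts, filters and scalings, omitted samples and a replicate block. The limma fit was checked on simulated counts of 15597 genes, made without pairs. It recovered 82.6% of changes of 1 log2 unit and 99.1% of changes of 2, and 8% of its calls were false. Only 86 genes were changed by 1 unit and 114 by 2, whereas 2940 genes were called in the data. No smaller change was simulated, and the called members changed by less (Esr2 -0.81, Pgr 0.56, Tsc22d3 -0.37). These shares therefore do not carry over to the members. The members, lists and tests were chosen with earlier results of these data known. Named were the 9 members, Opn3, Avp, Oxt, Per1, Dusp1, Zbtb16 and Klf9, up to 4 called genes of smallest p per related list, and 2 nearest profiles per called member. A gene that this rule names is not reported here. Of the lists, Tsc22d4, Pecam1 and Col1a2 matched no row.

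Labels do not say that equal numbers mark the same rat. Deviations from group means correlated across genes in all 5 same-numbered pairs (r 0.12 to 0.44), so the numbers were taken to pair the samples. For other pairs the median r was -0.21 and the range -0.45 to 0.36. Pair 4 had the lowest same-numbered r, 0.12, so r does not bear out its pairing. Its shControl sample correlated more with shOpn3 replicates 2 and 3 (both 0.24), and its shOpn3 sample with shControl replicate 5 (0.17). P-values measure the spread between these nuclei, of which each rat gave both, per the labels' protocols.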

Additional observations from a re-analysis of the deposited data

Results flagged for a closer look

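In 78 sets of 5 values (38 genes and the read totals, per group), 3 sets had an end sample whose distance to its neighbour exceeded 0.71 of the whole range, where chance alone gives about 3.9 at 1 in 20. For Fkbp5 this was shControl replicate 2, at 1210 normalized counts against 1107 in the nearest sample. For Oxt it was shControl replicate 1, at 56716 against 21354. For Sgk3 it was shOpn3 replicate 4, at 895 against 722, and this was the sample by which the groups of Sgk3 overlapped.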

How the results depend on the processing

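Of 243 values that the 9 members took over 27 alternatives, 225 kept their direction and side of the threshold, 6 lost a call, 7 gained one (all in Fkbp5) and 5 reversed; the cause was not tested. Reversals were Esr1 with limma-voom and sample quality weights (-0.19), without shControl replicate 1 (-0.12) and without replicate 1 (-0.10), and Hsd11b1 without shOpn3 replicate 1 (0.0672) and without replicate 1 (0.03). None of these genes was called. Of 783 values of the other 29 named genes, 742 were stable in this sense, 29 lost a call, 4 gained one and 8 reversed, all in Zbtb16: -0.10 with quantile normalization, -0.02, -0.03, -0.01 and -0.03 without shControl replicate 3, shControl replicate 4, shOpn3 replicate 1 and shOpn3 replicate 2, and -0.0475, -0.0017 and -0.03 without replicates 2, 3 and 4. With samples or pairs left out these log2 fold changes ranged from -0.12 to 0.32 for Esr1, from -0.11 to 0.07 for Hsd11b1 and from -0.05 to 0.11 for Zbtb16.

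The number of genes called was 2940 in the reported fit, 4726 with the replicate block in limma, 4777 with the block in edgeR, 4555 with the block in DESeq2, and 5085 with limma-voom and sample quality weights. Leaving out samples or pairs gave 1604 to 3056, and for the members called 1 to 4 instead of 3. The 5 related lists together held 20 called genes of 71 tested, 28.2% against 18.8% of all genes. They held 33 with limma-voom and sample quality weights, where 5085 of all 15597 genes were called, and 14 to 22 with samples or pairs left out. The block in limma added Fkbp5 to the members and Klf9, Cdkn1a, Fkbp4, Tspo, Hsd17b12 and Sts to the related lists (26 called), and it changed no other call among the members and these lists. With 5 nuclei a group, the 95% confidence intervals of the members not called differed in width, from -0.07 to 0.27 for Nr3c1 and from -0.42 to 0.76 for Esr1.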
